A study of Mus musculus with 6 samples.

Results

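The immediate early transcription factor genes are a set of 10 genes, taken by name, out of the 23016 genes of a single-cell count table of mouse marrow and blood cells. They are Fos, Fosb, Jun, Junb, Jund, Atf3, Egr1, Nr4a1, Ier2 and Btg2, and all 10 have a row in the table. Their levels were described across cell classes and across 6 libraries. The rule names the genes and uses no measured value.

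Immediate early genes are switched on within minutes of a signal, without new protein synthesis, by factors that already sit in the cell, such as serum response factor with its ternary complex partners and CREB. Fos, Fosb, Jun, Junb and Jund encode basic leucine zipper proteins that pair to form AP-1, and Atf3 is a related stress-responsive factor that can pair with Jun proteins. Egr1 is a zinc finger factor, Nr4a1 an orphan nuclear receptor, Ier2 a small nuclear protein, and Btg2 an antiproliferative co-regulator of messenger RNA decay. In mice Nr4a1 is known to be needed for non-classical monocytes, and handling or warming of cells is known to raise many of these transcripts.

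All mice were wild-type, and aged animals were compared with young ones in 3 contexts, with 1 library per group and so 6 libraries in all. Marrow was taken from aged and young mice whose middle cerebral artery had been occluded 24 h earlier, an experimental stroke, and from aged and young mice at steady state, and it was enriched for Gr1+ and for c-kit+ cells. Aged and young blood of untreated mice was sorted into CD11b+ Ly6G- and CD11b+ Ly6G+ cells. The ages, the number of mice per library and the handling times are not given in the sources used here, so every aged to young difference rests on 1 library of each age per context and was not checked against other animals.

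After filtering, 6190 and 7934 cells of aged and young steady-state marrow, 2643 and 2258 cells of aged and young marrow after stroke, and 5212 and 1973 cells of aged and young blood were kept. The libraries held between 10208699 and 72743805 UMIs (unique molecular identifiers, each counting 1 captured transcript). Any pair of libraries shared between 5 and 21 cell barcodes. Cell classes were rebuilt from marker genes and every class name means cells like that class. Clusters without a clear identity stayed unnamed and hold between 18 and 2199 cells per library. Counts of a class were summed per library and are given per 1000000 UMIs of that sum (CPM). Neutrophils of steady-state marrow were named immature only, those of blood mature only, and marrow after stroke held both stages, so stage moves with tissue. The level of a 3′ tag does not measure transcripts per length, and levels are therefore compared within a gene.

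Positions are those of the annotation of the build named for these data (GRCm38). Fos lies at chr12:85473890-85477273, Fosb at chr7:19302696-19310051, Jun at chr4:95049034-95052222, Junb at chr8:84974484-84978718, Jund at chr8:70698949-70700616, Atf3 at chr1:191170296-191218039, Egr1 at chr18:34859823-34864984, Nr4a1 at chr15:101254269-101274795, Ier2 at chr8:84661331-84662852 and Btg2 at chr1:134075170-134079120. All 10 are protein-coding. The Junb interval overlaps Prdx2, a peroxiredoxin gene on the other strand that reached 378 CPM, and the sources used here do not say whether strand was used in counting, so Junb carries that uncertainty. Jun and Jund overlap antisense genes that reached 1.10 and 3.62 CPM.

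Promoter stretches are shown because the levels of the members correlate across classes. RefSeq (GRCm38.p6) holds a promoter entry for 8 of the 10 members, and not for Egr1 and Ier2. The 200 bases before the RefSeq start were searched on both strands for the short cAMP response motif TGACG (the motif was added after the sequences had been read), the full element TGACGTCA, which contains the short motif on each strand, the AP-1 site TGANTCA, the CArG box by name, the EGR sites GCGTGGGCG and GCGGGGGCG, and CCAAT. The short motif was found in 6 of the 8, against 15.7% of all 32851 entries. The full element was found in 1, Btg2, against 1.47% of entries. An EGR site was found in 2, Fosb and Nr4a1, against 2.81% of entries, and CCAAT in 3, against 29.3%. No CArG box and no AP-1 site was found in these 200 bases, where 1.18% and 5.48% of entries hold one. Capitals mark the short motif on either strand. Both matches of Btg2 lie in the full element. The 6 stretches with the short motif and that of Jun, which has none, read 5′ to 3′ as follows.

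Fos, chr12:85473690-85473889, + strand: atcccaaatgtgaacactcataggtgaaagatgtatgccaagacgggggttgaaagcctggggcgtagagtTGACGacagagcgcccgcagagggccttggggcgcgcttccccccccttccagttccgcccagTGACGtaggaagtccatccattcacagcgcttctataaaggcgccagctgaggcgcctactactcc

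Fosb, chr7:19310046-19310245, - strand: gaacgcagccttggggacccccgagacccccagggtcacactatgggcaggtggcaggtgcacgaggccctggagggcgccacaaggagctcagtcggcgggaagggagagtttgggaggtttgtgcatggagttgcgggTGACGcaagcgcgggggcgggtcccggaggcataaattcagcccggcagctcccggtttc

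Junb, chr8:84978749-84978948, - strand: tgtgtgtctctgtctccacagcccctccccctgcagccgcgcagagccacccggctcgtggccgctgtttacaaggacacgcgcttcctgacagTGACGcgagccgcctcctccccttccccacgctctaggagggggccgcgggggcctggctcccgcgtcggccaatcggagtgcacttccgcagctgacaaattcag

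Atf3, chr1:191183334-191183533, - strand: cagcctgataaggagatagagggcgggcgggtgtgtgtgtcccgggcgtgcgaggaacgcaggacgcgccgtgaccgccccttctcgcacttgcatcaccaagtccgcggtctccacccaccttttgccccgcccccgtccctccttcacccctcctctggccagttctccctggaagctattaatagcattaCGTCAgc

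Nr4a1, chr15:101266646-101266845, + strand: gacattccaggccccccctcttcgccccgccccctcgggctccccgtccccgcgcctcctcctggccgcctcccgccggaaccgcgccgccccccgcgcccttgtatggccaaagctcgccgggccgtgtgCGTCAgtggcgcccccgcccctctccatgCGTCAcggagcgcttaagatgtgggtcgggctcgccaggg

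Btg2, chr1:134079156-134079355, - strand: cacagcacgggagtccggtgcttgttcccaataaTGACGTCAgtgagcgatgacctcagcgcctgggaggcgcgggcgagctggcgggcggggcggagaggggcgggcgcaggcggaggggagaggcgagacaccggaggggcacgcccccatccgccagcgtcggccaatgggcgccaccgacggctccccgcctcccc

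Jun, chr4:95052223-95052422, - strand: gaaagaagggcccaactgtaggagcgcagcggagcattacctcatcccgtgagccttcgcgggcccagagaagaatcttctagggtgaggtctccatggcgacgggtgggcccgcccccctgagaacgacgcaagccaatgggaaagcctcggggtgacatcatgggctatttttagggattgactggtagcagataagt

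Jund, the other member without the short motif, has its RefSeq start upstream of the annotated gene interval. The stretches of Atf3 and Nr4a1 lie wholly inside the annotated gene intervals, so their RefSeq starts are not the 5′ ends of those intervals. A match of letters does not show that a factor was bound.

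Across classes, mature neutrophil-like cells of blood held the highest level of 6 members in both libraries, when named classes are compared. Fos, the partner that forms AP-1 with Jun proteins, had 2008 CPM in aged and 2247 CPM in young blood neutrophils. The next class of blood, classical monocyte-like cells, had 495 and 525 CPM of Fos in aged and young blood, and no marrow class exceeded 108 CPM. Junb, which tempers Jun activity, had 3038 and 3970 CPM in aged and young blood neutrophils. Fosb had 308 and 336 CPM there and at most 41.9 CPM in any other named class. Jund, a more constantly expressed AP-1 member, had 1376 and 1448 CPM in these neutrophils, and B lineage-like cells followed, with 1135 and 926 CPM in aged and young blood and 639 and 1142 CPM in aged and young marrow after stroke. Ier2 had 558 and 711 CPM and Btg2 had 1214 and 1419 CPM in aged and young blood neutrophils. For these 6 members both blood neutrophil values lie above those of every other named class. Egr1 had 47.5 and 172 CPM in aged and young blood neutrophils, and the aged value lay below the 51.6 CPM of young non-classical monocyte-like cells of blood, so these classes overlap.

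**Figure D1:**
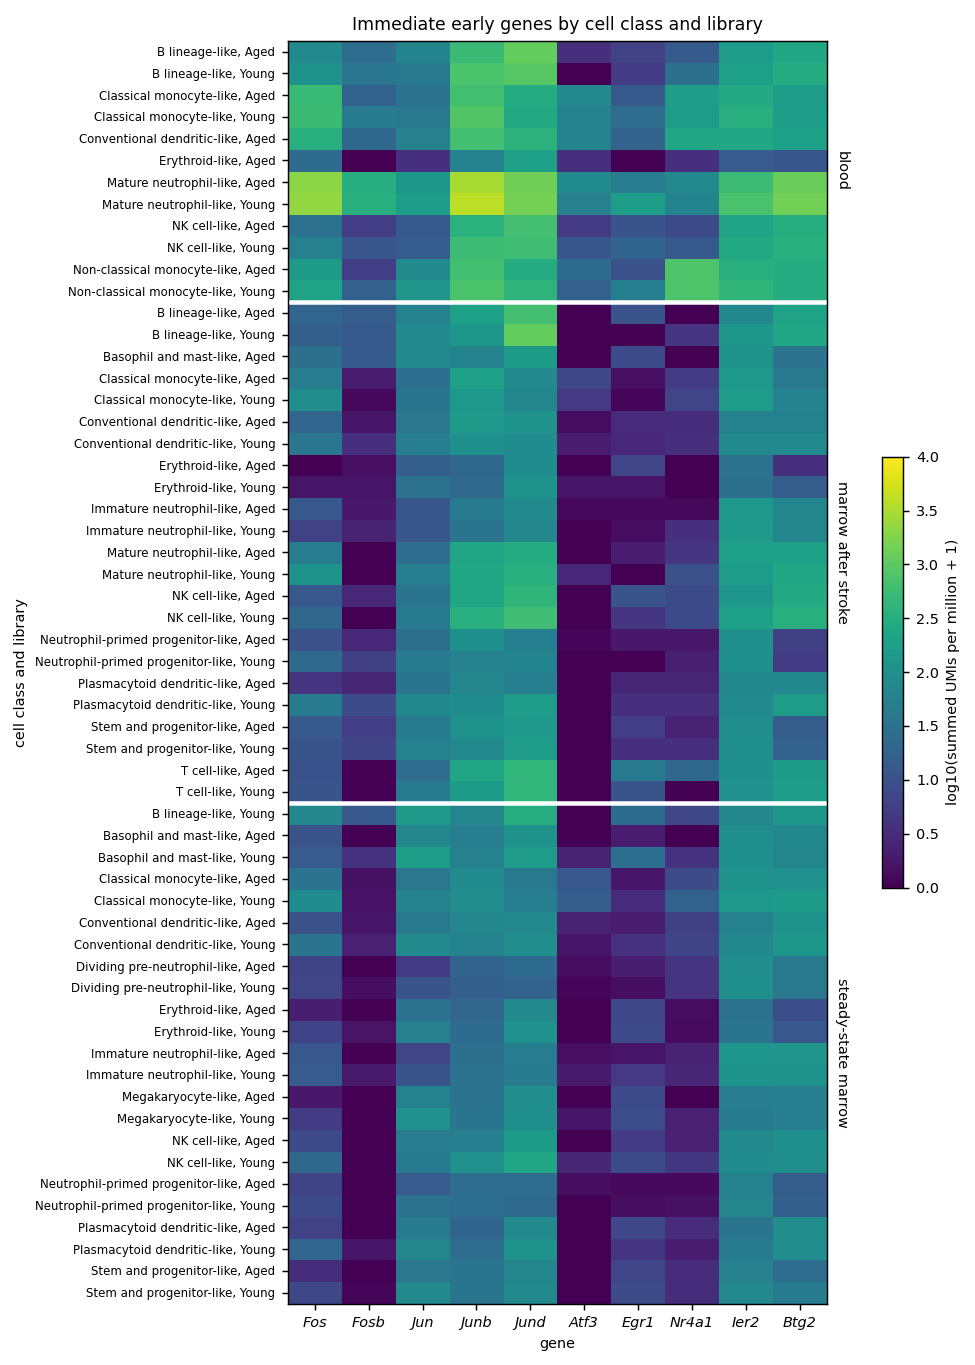
Levels of the 10 members (columns) in every named class and library with at least 30 cells (rows, grouped by blood, marrow after stroke and steady-state marrow), coloured as log10 of summed UMIs per 1000000 plus 1. Blood rows are brighter than marrow rows for most members and Nr4a1 is brightest in non-classical monocyte-like cells (791 CPM in both ages).

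Atf3 and Nr4a1 stood apart from that order. Atf3 had 74.2 and 57.6 CPM in classical monocyte-like cells of aged and young blood and 84.0 and 54.2 CPM in the mature neutrophils, so the classes overlapped. In stem and progenitor-like cells Atf3 had no UMI in any of the 4 marrow libraries, which allows at most 0.326 CPM in aged and 0.383 CPM in young steady-state marrow. Nr4a1 was highest in non-classical monocyte-like cells of blood, with 791 CPM in the aged and 791 CPM in the young library. Its level was 175 and 162 CPM in classical monocyte-like cells of aged and young blood, and at most 16.3 CPM in those of marrow.

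Over all classes and libraries, Jun followed the other members least. Its highest level, 176 CPM, was in basophil and mast-like cells of young steady-state marrow, where the aged cells had 70.3 CPM, and blood neutrophils had 130 CPM in the aged and 173 CPM in the young library. Over the 58 sums of class and library, log2(CPM + 10) of Jun correlated with the mean of the other 9 members at a Pearson r of 0.43. The same r was between 0.71 and 0.92 for the other members, with Junb highest. The sums of a library share its depth and free RNA, so these values are a description. The closest pair was Fos and Atf3 (r = 0.87), followed by Fos and Junb (0.86), and the most distant was Jun and Ier2 (0.25).

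Erythroid-like cells were taken as the background for shares of cells with a UMI. In aged blood, 45 such cells had 23.8 CPM of Fos, 58.1 CPM of Junb, 180 CPM of Jund and no UMI of Fosb or Egr1. At least 1 UMI of Fos was found in 98.7% of aged and 96.2% of young mature blood neutrophils (median depth 4011 and 3888 UMIs), against 20% of aged blood erythroid-like cells (median depth 8859 UMIs). The same share for Fosb was 57.1% and 54.8% in aged and young neutrophils and 0 of 45 erythroid-like cells. For Egr1 it was 11.2% in aged and 27.0% in young neutrophils and again 0 of 45 erythroid-like cells, which allows a share of up to 7.87% (upper end of the exact 95% interval). Nr4a1 was found in 97.4% of 577 aged and in 100% of 51 young non-classical monocyte-like cells, against 2.22% of the erythroid-like cells. All of these shares lie above the erythroid background, and for Egr1 in aged neutrophils the lower end of the interval is 10.1%.

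Neutrophil-like cells were then compared by stage within the marrow libraries after stroke, where both stages were found. Mature cells had more Fos than immature ones, with 49.4 against 11.3 CPM in the aged and 108 against 5.18 CPM in the young library. This is a 4.36-fold and a 20.8-fold ratio, with exact 95% counting intervals of 1.52 to 2.73 and 3.6 to 5.26 on the log2 scale. Junb had 227 against 41.2 CPM in aged and 253 against 33.5 CPM in young marrow, and Jund 304 against 80.9 CPM and 337 against 70.8 CPM. Btg2 was 2.96-fold and 3.62-fold higher in mature than in immature cells of the aged and young library. Jun was 2.47-fold and 4.81-fold higher, with log2 intervals of 0.53 to 2.04 and 1.61 to 2.95. Ier2 was 1.38-fold higher in the aged library (log2 interval 0.21 to 0.71), and in the young library its ratio of 1.18 had an interval that includes 0 (-0.03 to 0.49). Fosb had no UMI in mature marrow neutrophils of either age, which allows at most 3.29 CPM in the aged and 2.67 CPM in the young library, while the blood neutrophils had 308 and 336 CPM.

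**Figure D2:**
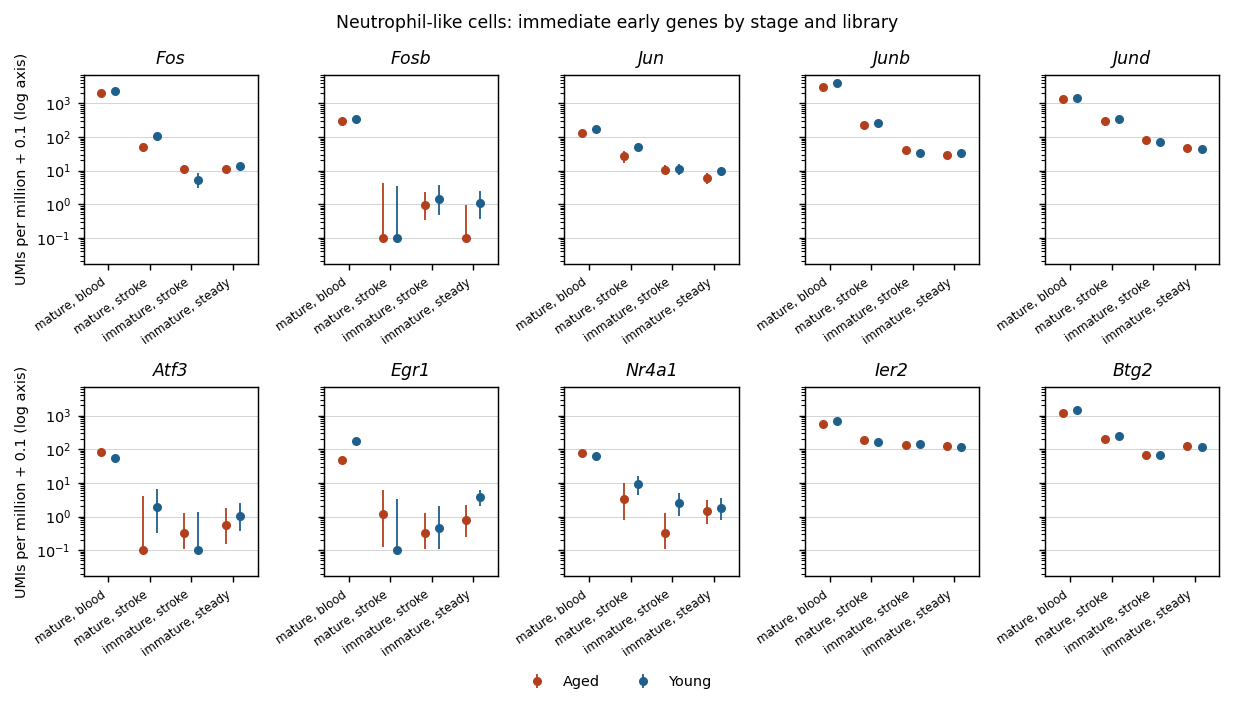
Level of each member in neutrophil-like cells, as UMIs per 1000000 plus 0.1 on a log axis, for mature cells of blood, mature and immature cells of marrow after stroke and immature cells of steady-state marrow. Points are single libraries, aged left of young, and bars are exact 95% counting intervals. For Fos, blood lies at 2008 and 2247 CPM and steady-state marrow at 11.2 and 13.2 CPM.

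Between blood neutrophils and the neutrophils of steady-state marrow all 10 members had counting intervals above 0 in both ages, as did 42.3% of the 10424 genes tested in neutrophils, while 21.1% had both intervals below 0. The log2 ratio of Fos was 7.49 in aged and 7.41 in young mice, that of Junb 6.69 and 6.94, and that of Jund 4.86 and 5.06. Ier2 had the smallest, 2.15 and 2.60. Fosb had no UMI in aged steady-state neutrophils, and its ratio there was at least 8.48 on the log2 scale by the lower end of the exact interval. Stage, tissue, sort and library all change between these sums and cannot be told apart. Cells of the unnamed clusters of steady-state marrow had 13.6 and 20.9 CPM of Fos in the aged and young library.

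Mature neutrophils of blood fell into 5 clusters. Fos had 1853 and 2051 CPM in a cluster of 1380 aged and 611 young cells and 2197 and 2590 CPM in one of 1395 aged and 502 young cells. Nr4a1 had 41.4 and 32.9 CPM in the first and 110 and 103 CPM in the second of these, and Egr1 had 28.4 and 115 CPM in the first and 70.4 and 251 CPM in the second, aged before young. One cluster of 30 aged and 123 young cells had a median of only 1004 UMIs in the young library, and its Egr1 sums rest on 2 and 21 UMIs.

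Lineages were compared next with edgeR's quasi-likelihood test on the sums, with the library as a block. Neutrophils (immature and mature joined) minus classical monocyte-like cells, over 6 libraries of each, had 5 members higher, 1 lower and 4 not past the adjusted p threshold of 0.05, where 66.7% of the 12698 genes tested were called, 32.3% higher and 34.4% lower. Fosb averaged 108 CPM in neutrophils and 10.1 CPM in monocytes, with a log2 difference of 3.26 ± 0.66 (SE, adjusted p = 0.00227 by edgeR). Egr1 was higher by 2.33 ± 0.35, Btg2 by 2.25 ± 0.40, Jund by 2.00 ± 0.29 and Ier2 by 1.26 ± 0.16. In the 4 marrow libraries Fosb and Egr1 were near the floor and the classes overlapped. Fosb had 0 to 0.995 CPM in neutrophils and 0.240 to 1.10 CPM in monocytes there. Egr1 had 0.249 to 3.61 CPM in the marrow neutrophils and 0.120 to 2.21 CPM in the marrow monocytes. The CPM ranges of Ier2, Btg2 and Jund overlapped in marrow as well. Ier2 had 117 to 145 CPM in the marrow neutrophils and 114 to 158 CPM in the marrow monocytes. Btg2 had 88.0 to 121 CPM and 39.1 to 151 CPM in the same order. For Jund the ranges were 43.3 to 145 CPM and 38.4 to 78.2 CPM. Nr4a1 was lower by the fit, with -0.85 ± 0.29 (adjusted p = 0.0275). Without the aged or young steady-state, the aged stroke or the young blood library, taken 1 at a time, its adjusted p reached 0.0655. It was 0.423 with the members kept in the clustering and 0.335 without stroke cluster 3, and over 15 alternatives it ran from 0.00145 to 0.423. Fos, Jun, Junb and Atf3 did not pass. For Fos the contexts went opposite ways: mature neutrophils of aged and young blood were 4.06-fold and 4.28-fold above its classical monocytes, while steady-state marrow had 11.2 and 13.2 CPM in neutrophils against 32.5 and 87.8 CPM in monocytes. The share of called genes that were higher changed from 48.4% to 19.5% when sums were scaled to their total UMIs, a shift of 0.92 on the log2 scale of all genes, and Ier2 then had 0.34 (adjusted p = 0.220, the highest of its 15 alternatives).

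In marrow, the neutrophils minus stem and progenitor-like cells (4 libraries each) had 6 members higher and 1 lower among 9 tested, against 78.3% of genes called, 34.8% higher and 43.5% lower. Btg2 was higher by 3.62 ± 0.20, Fos by 2.76 ± 0.28 and Ier2 by 2.22 ± 0.16. Jun was lower, with a difference of -0.72 ± 0.24 (adjusted p = 0.0163) and 12.7 CPM on average in neutrophils and 52.8 CPM in stem and progenitor-like cells. That call was lost without the aged steady-state library (adjusted p = 0.0645), without the young one (-0.44, adjusted p = 0.112), with doublets kept (adjusted p = 0.0502) and without the 2 stem clusters that are almost all aged (adjusted p = 0.107). That comparison depends on scaling: the median gene moved by 1.44 on the log2 scale between TMM and total UMIs, and the share of calls that were higher was 44.5% with TMM and 16.2% with total UMIs. Junb, Jund and Nr4a1 were called higher with TMM and had negative differences with total UMIs (-0.19, -0.43 and -0.32). Nr4a1 averaged 2.01 CPM in neutrophils and 2.08 CPM in stem and progenitor-like cells, and its adjusted p ran from 0.0256 to 0.502 over 11 alternatives.

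Classical monocyte-like minus stem and progenitor-like cells of marrow had 6 members higher and 2 lower among 10, where 62.3% of genes were called, 31.1% higher and 31.2% lower. Fos was higher by 3.50 ± 0.30, with 32.5 to 90.0 CPM in monocytes and 2.28 to 12.2 CPM in stem and progenitor-like cells. Nr4a1 was higher by 2.35 ± 0.32 and Btg2 by 2.10 ± 0.13, and Junb by 1.36 ± 0.14. Atf3 had 3.6 to 14.4 CPM in monocytes and no UMI in stem and progenitor-like cells, and it too was called higher. Egr1 was lower, at -2.28 ± 0.42 (adjusted p = 0.00210), with 0.120 to 2.21 CPM in monocytes and 2.44 to 7.28 CPM in stem and progenitor-like cells. Jund had a difference of -0.57 ± 0.12, and without the 2 clusters of stem cells that are almost all aged its adjusted p was 0.0543, the highest over 13 alternatives. The median gene moved by 0.31 between the scalings, and higher genes made up 49.9% of calls with TMM and 33.5% with total UMIs.

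Non-classical monocyte-like cells are the patrolling monocytes of blood, and only blood held enough of them, 577 aged and 51 young cells. Their comparison with classical monocyte-like cells had 3 members higher, 3 lower and 4 not past the threshold, against 34.9% of genes called, 15.4% higher and 19.5% lower. Nr4a1 was 4.53-fold and 4.90-fold above the classical cells in aged and young blood, with a fitted log2 difference of 2.06 ± 0.11 (adjusted p = 9.05e-79). Jun had 77.1 and 119 CPM in aged and young non-classical cells and 33.0 and 39.6 CPM in the classical ones, a difference of 1.17 ± 0.17, and Btg2 was higher by 0.72 ± 0.12. Fos, Fosb and Atf3 went the other way. Fos had 149 and 198 CPM in non-classical and 495 and 525 CPM in classical cells of aged and young blood, a difference of -1.77 ± 0.11, Fosb one of -1.85 ± 0.31 and Atf3 one of -1.79 ± 0.20. This fit has 1 residual degree of freedom, so its p-values rest largely on the spread pooled over genes. They do not measure how far animals differ. The scaling moved the median gene by -0.16, and higher genes made up 44.2% of calls with TMM and 61.8% with total UMIs.

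**Figure D3:**
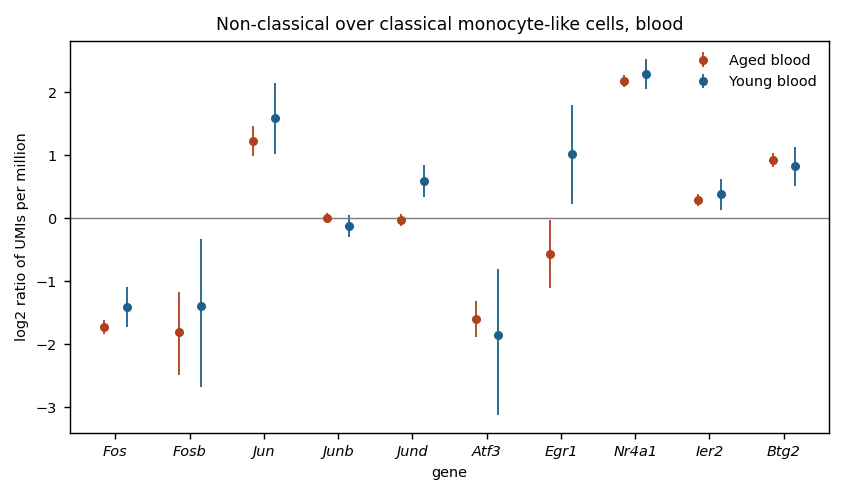
Log2 ratio of CPM in non-classical over classical monocyte-like cells of blood for each member, aged left of young, with exact 95% counting intervals. Nr4a1 lies at 2.18 and 2.29, Jun at 1.23 and 1.59, and Fos at -1.73 and -1.40.

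Classical monocyte-like cells were found in all 3 contexts. In blood against steady-state marrow, 9 members were higher and none lower, where 38.2% of the 11690 genes tested were called, 18.9% higher and 19.3% lower. Fos had 495 and 525 CPM in aged and young blood monocytes and 32.5 and 87.8 CPM in aged and young steady-state marrow monocytes. The fitted difference was 3.51 ± 0.25 (adjusted p = 6.57e-07 by edgeR). Both blood values exceed both marrow values for Fos, and the same holds for Fosb, Junb, Jund, Atf3, Egr1, Nr4a1, Ier2 and Btg2, as for 22.8% of the genes tested. Fosb was higher by 5.83 ± 0.64, against only 2 UMIs in each of the marrow sums. Nr4a1 was higher by 4.16 ± 0.24, Egr1 by 3.92 ± 0.50, Junb by 3.30 ± 0.19, Jund by 2.96 ± 0.16, Atf3 by 2.65 ± 0.22 and Ier2 by 1.52 ± 0.12. Btg2 rose least of the 9, by 0.66 ± 0.15 (adjusted p = 0.0041, and 5.91e-05 to 0.109 over 13 alternatives). Without the aged blood library its value was 0.41 (adjusted p = 0.0821), and without the aged steady-state library 0.58 (adjusted p = 0.109). Jun had 33.0 and 39.6 CPM in aged and young blood against 37.9 and 59.9 CPM in marrow, a difference of -0.11 ± 0.16 (adjusted p = 0.622). The median of the 10 members was 3.13 and that of all genes -0.02. The blood and marrow cells differ in sort and library as well as in tissue, which cannot be told apart. The scaling moved the median gene by 0.27, higher genes made up 49.5% of calls with TMM and 29.5% with total UMIs, and all 9 members remained higher.

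**Figure D4:**
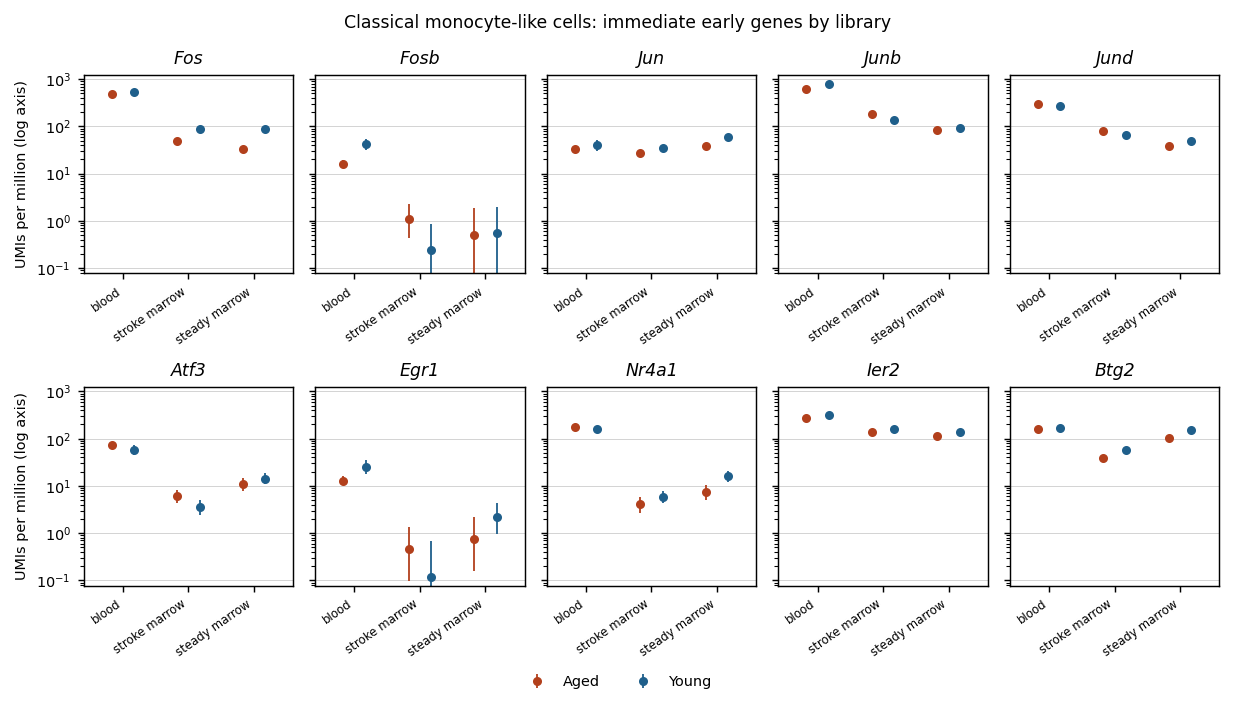
Level of each member in classical monocyte-like cells, as UMIs per 1000000 on a log axis, for blood, marrow after stroke and steady-state marrow. Points are single libraries, aged left of young, and bars are exact 95% counting intervals. Blood lies above marrow for every member but Jun.

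Stroke was compared with steady state within marrow, with age as a term and 4 libraries, 1 residual degree of freedom. Each group is 1 library, so stroke and library cannot be told apart. Classical monocyte-like cells had a median of 25950 and 23710 UMIs in aged and young marrow after stroke, against 6604 and 5610 at steady state. The highest mitochondrial share of a deposited cell was 9.95% and 9.90% after stroke, against 4.99% and 4.91% at steady state. In neutrophils 5 of 6 members tested were higher and none lower, against 21.5% of genes called, 13.2% higher and 8.3% lower. Fosb, Atf3, Egr1 and Nr4a1 were too low to be tested. Jund had 118 and 145 CPM after stroke in aged and young marrow against 47.4 and 43.3 CPM at steady state, a difference of 1.77 ± 0.13. Junb was higher by 1.67 ± 0.14, Jun by 1.45 ± 0.23, Fos by 1.27 ± 0.21 and Ier2 by 0.50 ± 0.11, while Btg2 differed by 0.03 ± 0.13. The call of Ier2 was lost with DESeq2 (adjusted p = 0.126) and with total UMIs (0.25, adjusted p = 0.133). The stroke sums hold 132 and 183 mature cells and the steady-state sums none. Among immature cells alone, Fos had 11.3 and 5.18 CPM after stroke against 11.2 and 13.2 CPM at steady state in aged and young marrow, and Btg2 66.5 and 67.4 CPM against 121 and 114 CPM. Among the immature cells of aged and young marrow, Jund had 80.9 and 70.8 CPM after stroke against 47.4 and 43.3 CPM, Junb 41.2 and 33.5 CPM against 29.4 and 32.3 CPM, Jun 10.7 and 10.7 CPM against 5.84 and 9.39 CPM, and Ier2 136 and 138 CPM against 126 and 117 CPM. The part of the stage in the difference of the joined class was not tested. The scaling moved the median gene by 0.25, and higher genes made up 61.5% of calls with TMM and 28.2% with total UMIs.

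Among classical monocyte-like cells, 4 members were higher after stroke, 3 lower and 1 not past the threshold, where 50% of genes were called, 25.6% higher and 24.4% lower. Fosb and Egr1 were not tested. Junb had 185 and 135 CPM after stroke against 82.9 and 91.1 CPM at steady state in aged and young marrow, a difference of 1.28 ± 0.13. Jund was higher by 1.13 ± 0.14, Fos by 0.69 ± 0.14 and Ier2 by 0.64 ± 0.11. For Fos the aged pair had 49.0 CPM after stroke against 32.5 CPM at steady state, a log2 ratio of CPM of 0.59, and the young pair 90.0 against 87.8 CPM, a ratio of 0.04 with a counting interval of -0.15 to 0.23. Without the aged steady-state library the fitted value of Fos was 0.45. Btg2 was lower, with 39.1 and 57.7 CPM against 106 and 151 CPM and a difference of -1.0 ± 0.12. Atf3 had a difference of -1.0 ± 0.30 and Nr4a1 one of -0.82 ± 0.28, and DESeq2 called neither (adjusted p = 0.224 and 0.383). Both calls were also lost with doublets kept (adjusted p = 0.126 and 0.131) and at resolution 0.5 (0.161 and 0.649). Over 8 alternatives Atf3 ran from -2.84 to -0.44 and Nr4a1 from -2.40 to -0.14. Without 1 library, values with no test, Atf3 had -1.58 and -1.55 without the aged steady-state and the aged stroke library and -0.46 and -0.43 without the young ones, where Nr4a1 had -0.47 and -0.45. Cluster 3 of the stroke monocytes carries neutrophil transcripts, and without it Fos had 0.18 (adjusted p = 0.297) and Jund 0.24 (adjusted p = 0.149), while Junb kept 0.87 and Btg2 -2.03. With total UMIs the value of Fos was 0.27 (adjusted p = 0.102) and that of Ier2 0.23 (adjusted p = 0.0856). The median gene moved by 0.41 between the scalings, and higher genes were 51.2% of calls with TMM and 21.4% with total UMIs.

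In stem and progenitor-like cells 5 members were higher after stroke, 1 lower and 3 not past the threshold, against 31.7% of genes called, 16.1% higher and 15.6% lower. Junb had 108 and 81.4 CPM after stroke against 33.3 and 35.2 CPM at steady state in aged and young marrow, a difference of 1.87 ± 0.13. Jund was higher by 1.48 ± 0.10, Fos by 1.97 ± 0.39 and Ier2 by 0.93 ± 0.12. For Fos the aged pair had 12.2 against 2.28 CPM, a log2 ratio of CPM of 2.41, and the young pair 9.76 against 6.26 CPM from 12 and 49 UMIs, a ratio of 0.64 with an interval that includes 0 (-0.40 to 1.57). Without the aged steady-state or the aged stroke library the fitted value of Fos was 0.96, with no test. Fosb had 4.25 and 5.69 CPM after stroke, and no UMI and 0.128 CPM at steady state, from 15 and 7 UMIs against 0 and 1, and it was called higher. Btg2 was lower, with 14.2 and 17.1 CPM against 26.1 and 42.5 CPM, a difference of -0.68 ± 0.20 that was not called by DESeq2 (adjusted p = 0.365). The neutrophil, monocyte and stem fits share their libraries, so they are not independent of each other. The scaling moved the median gene by 0.37 here, with higher genes 50.7% of calls with TMM and 16.7% with total UMIs.

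Age was compared within context. In neutrophils, over 3 contexts, 1 of 10 members was called lower and none higher, against 0.0384% of genes called lower (4 of 10424) and 0% higher, and 670 genes had an unadjusted p under 0.05. That member was Egr1, with 47.5 against 172 CPM in aged and young blood, 0.364 against 0.249 CPM after stroke and 0.7 against 3.61 CPM at steady state. The fitted difference was -1.84 ± 0.21 (adjusted p = 0.0200 by edgeR), and 2 of 3 pairs were lower in aged mice. It rests on the blood pair: without the aged blood library the value was -1.70 with an adjusted p of 0.794, and without the young blood library -1.71 with 0.980. Over its other 12 alternatives it stayed past the threshold. The other 9 had adjusted p between 0.582 and 0.990, and unadjusted p under 0.05 for Fos, Jun, Junb and Atf3. After stroke the joined class held 132 mature cells among 461 aged and 183 among 360 young cells. There the aged over young log2 ratio of Junb was -0.40 in the joined class, 0.30 in immature and -0.15 in mature cells. The part of the stage in these age differences was not tested.

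Within blood, Egr1 was lower in aged than in young cells of mature neutrophils, with a log2 ratio of -1.85 and an exact 95% counting interval of -2.0 to -1.71. It was also lower in non-classical monocyte-like cells, with 8.69 CPM from 47 UMIs in aged against 51.6 CPM from 26 UMIs in young blood, a ratio of -2.57 (interval -3.29 to -1.82). In classical monocyte-like cells it had 12.8 CPM against 25.4 CPM, a ratio of -0.99 (-1.58 to -0.37). In stem and progenitor-like cells of steady-state marrow it had 5.76 and 7.28 CPM in aged and young mice, with an interval that includes 0. These intervals cover counting error only.

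**Figure D5:**
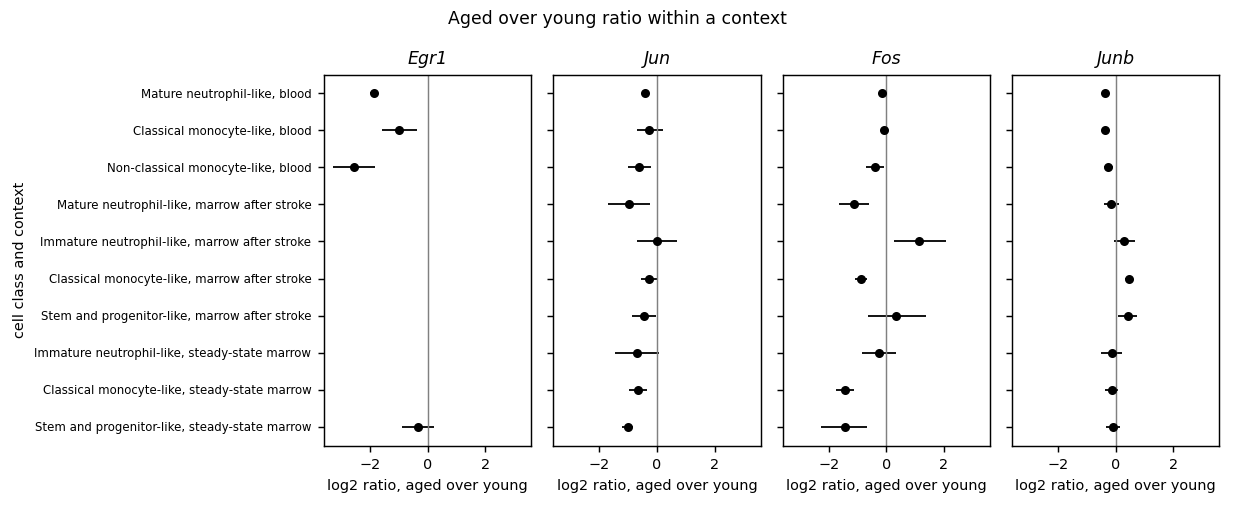
Log2 ratio of CPM, aged over young, of Egr1, Jun, Fos and Junb in 5 classes and 3 contexts, with exact 95% counting intervals; points with fewer than 20 UMIs in the 2 libraries are left out. Egr1 lies below 0 in all 3 blood classes, and Jun lies below 0 in each class shown except immature neutrophils after stroke, which had 10.7 CPM at both ages.

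In classical monocyte-like cells no member was called by age, where 0.0941% of genes were called (11 of 11690, 0.0855% higher and 0.00855% lower), and 593 genes had an unadjusted p under 0.05. Fos had 32.5 against 87.8 CPM in aged and young steady-state marrow, 49.0 against 90.0 CPM after stroke and 495 against 525 CPM in blood, lower in aged cells in 3 of 3 pairs. Its fitted difference was -0.76 ± 0.19 (adjusted p = 0.322 by edgeR). With no filter on low counts it was called (-0.75), as it was without either stroke or either blood library, and its adjusted p ran up to 0.996 over 14 alternatives.

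In stem and progenitor-like cells 2 members of 9 tested were called lower and none higher, against 2.32% of genes called, 1.69% higher and 0.63% lower. Jun had 37.3 against 75.7 CPM in aged and young steady-state marrow and 41.3 against 56.9 CPM after stroke, a difference of -0.85 ± 0.14 (adjusted p = 6.39e-05 by edgeR). Btg2 had 26.1 against 42.5 CPM and 14.2 against 17.1 CPM, a difference of -0.63 ± 0.17 (adjusted p = 0.0320). With 1 residual degree of freedom these calls depend on the pooled spread: DESeq2 called neither (adjusted p = 0.617 for Jun and 0.9999 for Btg2), and Btg2 had 0.0916 under DESeq2's size factors and 0.568 without the 2 clusters that are almost all aged. It was also lost with doublets kept (0.196) and with members kept in the clustering (0.129). Without either steady-state library Jun had -0.44 and Btg2 -0.25, with no test.

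Jun was lower in aged cells beyond these classes as well. In steady-state marrow it was lower in 10 of 11 classes, with 9 intervals below 0, and in marrow after stroke in 11 of 11, with 7 intervals below 0, although immature neutrophils had 10.7 CPM at both ages. In blood it was lower in 4 of 5 classes. Fos was lower in aged cells in 11 of 11 classes of steady-state marrow, in 8 of 11 after stroke and in 5 of 5 of blood. Jun is among the 8042 genes with at least 10 UMIs in each class of steady-state marrow, and 3.56% of them were lower in at least 10 of the 11 classes. After stroke 1.07% of 3632 such genes were lower in all 11. In blood 19.5% of 7846 were lower in at least 4 of the 5 classes and 5.83% in all 5. Fos has fewer UMIs in some marrow classes, and among genes with at least 1 UMI in each class 0.79% of 12526 were lower in all 11 at steady state and 21.4% of 8970 in at least 8 after stroke. The classes of a library share its preparation, so a difference between 2 libraries is repeated in each class and is not independent evidence. Junb went both ways: in blood it was lower in aged cells in 5 of 5 classes, and after stroke higher in 7 of 11, with 5 intervals above 0, where 24.4% of the 3632 genes were higher in at least 7.

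Members were also counted in single cells thinned to 1500 UMIs. At least 3 of the 10 members were found in 96.9% of aged and 97.9% of young mature blood neutrophils, against 17.3% and 21.2% of the mature neutrophils of aged and young marrow after stroke. The share was 1.26% and 0.924% in immature neutrophils of aged and young steady-state marrow. Among classical monocyte-like cells it was 42.3% and 47.0% in aged and young blood and 3.51% and 6.82% in aged and young steady-state marrow. Within aged blood neutrophils, Fosb was found in 34.6% of cells with Fos and in 25.0% of cells without it, and in young ones in 35.2% and 21.1%. Egr1 was found in 5.97% of aged neutrophils with Fos and in 4.02% of those without, and in 17.0% and 7.81% of young ones. Jun had 15.8% and 11.8% in aged and 18.9% and 18% in young cells, and Junb 96.4% and 97.1% in aged and 98.3% and 98.4% in young cells.

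Other genes of the pathway came from lists of other immediate early factors, feedback genes, upstream kinases and glucocorticoid-responsive genes. In classical monocytes from blood against steady-state marrow, 19 of 23 tested feedback and other immediate early genes were higher and none lower, with a median of 2.11. The largest was Socs3, a brake on cytokine signalling, at 5.32 ± 0.57, with 60.1 CPM on average in blood and 1.71 CPM in marrow. Dusp1, a phosphatase that switches off mitogen-activated kinases, had 174 and 9.03 CPM and a difference of 4.57 ± 0.21. Dusp6, which switches off ERK, was higher by 3.02 ± 0.15. Of other immediate early factors, 10 of 20 tested were higher and 1 was lower, and of 15 upstream kinases and factors 3 were higher and 1 lower. Of 10 glucocorticoid-responsive genes 8 were higher and 2 lower, with a median of 1.68. Over all genes tested in that comparison, 18.9% were higher and 19.3% lower, so the count of upstream kinases and factors called higher is near that share.

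After stroke, 12 of 19 feedback genes were higher in neutrophils, 11 of 22 in monocytes and 11 of 24 in stem and progenitor-like cells, and 0, 1 and 0 were lower. Over all genes tested, 13.2%, 25.6% and 16.1% were higher and 8.3%, 24.4% and 15.6% lower in these comparisons. The neutrophil sums hold mature cells after stroke only, and the part of that was not tested. Dusp1 was higher by 2.77 ± 0.21 in the neutrophils, with 73.7 CPM against 12.1 CPM, and Pim1, a survival kinase, by 2.19 ± 0.15. Among glucocorticoid-responsive genes 6 of 9, 6 of 10 and 6 of 10 were higher and none lower in these 3 comparisons. Fkbp5, a chaperone induced by glucocorticoid receptor, was higher by 1.99 ± 0.13 in monocytes and Tsc22d3, an anti-inflammatory target of the same receptor, by 1.65 ± 0.12 in stem and progenitor-like cells. Dusp1 stands on both lists.

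The genes whose pattern over the 58 sums was most like the mean of the 10 members, among 6007 ranked, were Zfp36 (r = 0.90), which destabilises cytokine messages, Dusp1 (0.90), Mcl1 (0.88), a survival protein, Gm26532 (0.87), Nfkbiz (0.87), Rnf149 (0.86), C230096K16Rik (0.86), Irf1 (0.85), Adgre5 (0.85) and Rara (0.85). All 10 had their highest level in mature neutrophils of blood, in the young library for 7 of them. These correlations are a description over sums that share libraries, and nothing about shared control follows from them.

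Heat shock transcripts, which also rise with handling, were measured beside the members. Hspa1a had at most 5.37 CPM and Hspa1b at most 3.93 CPM in the neutrophil, classical monocyte and stem classes. Hspa1a had 3.4 and 2.1 CPM in mature neutrophils of aged and young blood and 0 CPM in immature ones of aged and young steady-state marrow. Hspa1b had 3.93 and 3.88 CPM in these blood neutrophils against 0.233 and 0 CPM, and Dnajb1 36.9 and 35.4 against 16.3 and 18.1 CPM. In classical monocytes Dnajb1 had 24.7 and 29.9 CPM in aged and young blood against 48.1 and 60.7 CPM in steady-state marrow. The summed level of 15 heat shock genes was 787 and 694 CPM in mature neutrophils of aged and young blood, where the summed level of the members was 8838 and 10590 CPM. In immature neutrophils of steady-state marrow the heat shock sum was 804 and 804 CPM and the member sum 343 and 337 CPM. Classical monocytes had a heat shock sum of 2819 and 2405 CPM in aged and young blood against 4098 and 3925 CPM in steady-state marrow. Single genes of the sum went both ways. In these monocytes Hsp90ab1 had 866 and 632 CPM in blood against 2080 and 1939 CPM, and Dnaja1 78 and 76.3 against 42.7 and 46.9 CPM. In mature blood neutrophils Hsp90ab1 had 156 and 103 CPM, against 343 and 327 CPM in immature ones of steady-state marrow. Dnaja1 had 111 and 119 CPM in the blood ones against 23.6 and 31.5 CPM. Across the tested heat shock list, 3 were higher and 4 lower in blood monocytes against marrow ones, among 14, where 18.9% of all genes were higher and 19.3% lower. After stroke 2 of 10 were higher and 4 lower in neutrophils, 5 of 12 higher and 1 lower in monocytes, and 4 of 12 higher and 2 lower in stem and progenitor-like cells. The shares of all genes there were 13.2%, 25.6% and 16.1% higher and 8.3%, 24.4% and 15.6% lower. Hspa8, a constitutive chaperone, had 1096 and 918 CPM in monocytes of aged and young blood against 636 and 689 CPM in steady-state marrow. The mitochondrial share was 0.609% and 0.466% in mature blood neutrophils and 0.398% and 0.475% in immature ones of steady-state marrow. The part of handling, sorting or time to capture in the levels of the members was not tested.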

How the data were processed

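Single-cell UMI counts of 6 libraries were analysed. The authors deposited raw UMI counts per gene and cell, from 10x Chromium 3′ libraries per the labels; per the submitters' processing notes, which give no roles, the tools were featureCounts 1.6.4, STAR 2.5.3a, Cell Ranger 3.0.2, Subread and UMI-tools, and the build GRCm38 (mm10). Members, lists and tests were chosen with earlier results of these data known.

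Cells with at least 500 UMIs, 200 genes and at most 10% mitochondrial counts were kept. A simulated-doublet score above 0.25 removed 3.11% and 3.40% of aged and young steady-state marrow, 0.452% and 0.309% of marrow after stroke and 2.43% and 2.76% of blood cells. In the aged and young stroke libraries that score caught just 11.3% and 5.78% of doublets made by simulation, so doublets remain there. Each context was clustered (2000 variable genes, members and other list genes left out, 30 components, 15 neighbours, Leiden resolution 1; Python 3.11.15, scikit-learn 1.9.0, leidenalg 0.10.2). Clusters were named from markers of 18 classes by a scoring rule set after cluster tables had been seen.

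Counts were summed per class and library with at least 30 cells and tested in R 4.3.3 by edgeR 4.0.16's quasi-likelihood test after filterByExpr and TMM scaling, adjusted by Benjamini-Hochberg over all genes, additively in age and context or blocked by library. With 1 library per group, p-values of the additive fits measure how far a difference varies between contexts or ages. Those of the blocked fits measure how far it varies between libraries, and neither measures spread between animals. With 1 residual degree of freedom, p-values rest largely on the spread pooled over genes. Some of the tests were run on simulated counts with the same spread for every gene and no library effects. Such counts cannot show how the tests behave with the spread of these data. Intervals are exact binomial or conditional and cover counting error only. All 10 members and at most 5 other listed genes per comparison (largest change, at least 20 CPM) are named. Alternatives included DESeq2 1.42.0.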

Additional observations from a re-analysis of the deposited data

Results flagged for a closer look

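Some aged over young ratios of CPM lay on opposite sides of 0 in 2 contexts of the same class, with both exact 95% counting intervals excluding 0. The difference between contexts was not tested, since each context has 1 library per age. In classical monocyte-like cells Junb had log2 ratios of 0.45 after stroke and -0.39 in blood. Jund had 0.22 after stroke, -0.37 in steady-state marrow and 0.17 in blood in the same class. In conventional dendritic-like cells Jund had 0.34 after stroke and -0.34 at steady state, and in B lineage-like cells 0.29 in blood and -0.84 after stroke. Nr4a1 in neutrophils (immature and mature joined) had 0.24 in blood and -2.54 after stroke, where the mature share also differs between the ages.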

How the results depend on the processing

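No paired analysis was possible because each group has 1 library and no replicate numbers, for the comparisons of age, stroke and tissue; those between classes had the library as a block. Among values of single members, 718 kept their side of the threshold, and their direction where called, under alternatives other than leaving out 1 library. Values past the threshold in neither fit count as kept whatever their sign. Another 31 were no longer past it, 15 became so and 4 reversed. With 1 library left out, 339 were kept, 12 were no longer past the threshold, 6 became so, and 76 values with no test moved by more than their standard error. Where values changed, the cause was not tested. In neutrophils minus classical monocytes, 5 members higher became 3 at resolution 0.5, and 1 lower became 2 with DESeq2, 3 at resolution 0.5, 2 with total UMIs, 0 with members kept in the clustering and 0 without stroke cluster 3 (0 to 2 without 1 library); Fos reversed to -1.22 at resolution 0.5. In neutrophils minus stem and progenitor-like cells, 6 higher became 3 at resolution 0.5 and 3 with total UMIs, and 1 lower became 2 at resolution 0.5, 3 with total UMIs, 0 with doublets kept and 0 without the 2 mostly aged stem clusters (0 to 1 without 1 library). With total UMIs Junb (-0.19), Jund (-0.43) and Nr4a1 (-0.32) reversed there. In monocytes minus stem and progenitor-like cells, 2 lower became 1 without those clusters. By age, neutrophils had 0 to 1 lower without 1 library. Monocytes had 1 lower without a filter, 2 at resolution 0.5 and 0 to 1 without 1 library, and stem and progenitor-like cells had 1 with DESeq2's size factors, 0 with DESeq2, 1 with doublets kept, 1 with members kept in the clustering and 1 without the mostly aged clusters. After stroke, neutrophils lost Ier2 with DESeq2 and with total UMIs, and monocytes had 2 higher with total UMIs and 2 without stroke cluster 3, and 1 lower with DESeq2, 1 at resolution 0.5 and 1 with doublets kept. Stem and progenitor-like cells had 0 lower with DESeq2. Thinned to 1500 UMIs, aged and young blood neutrophils had Fos in 89.3% and 91.4%, Fosb in 33.5% and 34.0% and Egr1 in 5.76% and 16.2% of cells, and non-classical cells had Nr4a1 in 66.6% and 64.7%. Resolution 0.5 named no blood classical monocytes or stroke stem cells, so 4 comparisons gave no value there. Neutrophils minus monocytes and monocytes by age then rest on 4 libraries without blood, and neutrophils minus stem and progenitor-like cells on 2. The reversed value of Fos is therefore from a fit without blood, unlike the main fit. Leaving out 1 library gave no test for the comparisons with 1 residual degree of freedom. The total-UMI scaling and the settings without clusters were chosen after seeing the data. Depth limits Fosb, Atf3 and Egr1 in marrow, where sums hold few UMIs.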
